A study of Homo sapiens with 24 samples.

Results

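A set of 10 genes of the NF-κB pathway, the 5 Rel subunits NFKB1, NFKB2, REL, RELA and RELB and the 5 feedback inhibitors NFKBIA, NFKBIE, NFKBIZ, TNFAIP3 and BIRC3, were followed through 4 RNA-seq experiments on OE33 cells, a human cell line established from an esophageal adenocarcinoma. The members were chosen by name, with earlier results of these data known. Their rows in the count tables were found through the Ensembl identifiers. All 10 were present once among 61860 rows, and all 10 passed the filter on low counts in each experiment. Each experiment had 3 treated and 3 control libraries of its own, so that no library served in more than one comparison and the series held 24 libraries in 8 groups.

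In the first experiment unmodified OE33 cells had grown for 21 days as subcutaneous tumors in male BALB/c-nu nude mice, which lack mature T cells and keep other host cells. The mice were bought at 4 weeks of age and were fed either chow rich in fat (HFD) or normal chow (ND) for 8 weeks before the injection and until the end. In the other experiments cultured OE33 cells were transfected with plasmids. One set carried HA-tagged TRIM15, an E3 ubiquitin ligase, or the empty vector (EV) for 48 h. Another carried a short hairpin RNA against the transcription factor YY2 (shYY2) or shControl, and the last a hairpin against the oxidoreductase-domain protein FOXRED1 (shFOXRED1) or its own shControl, each for 72 h. Which of the hairpins against a gene was sequenced is not given in the sources used here, and every group derives from 1 cell line. The labels number the libraries 1 to 3 without saying whether they came from separate cultures or, in the xenografts, from separate tumors. The p-values therefore measure the spread between these libraries, which may be technical in any of the experiments.

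NF-κB is a family of dimeric transcription factors built from the Rel subunits. In resting cells the dimers are held in the cytoplasm by IκB proteins, and signals from cytokine and pattern recognition receptors activate the IKK kinase complex, which marks the IκB proteins for destruction and frees the dimers to enter the nucleus. Several of the genes that NF-κB then switches on encode its own subunits and its own inhibitors, so that in epithelial cells the mRNA of such a gene is both a part and a product of the pathway. NFKB1 and NFKB2 encode precursors that are shortened into DNA-binding subunits without a transactivation domain, whereas REL, RELA and RELB carry such a domain. NFKBIA and NFKBIE encode the cytoplasmic inhibitors IκBα and IκBε, and NFKBIZ encodes the nuclear IκBζ, which can also act as a coactivator. TNFAIP3 encodes a ubiquitin-editing enzyme that turns the receptor signal down, and BIRC3 encodes an inhibitor-of-apoptosis ubiquitin ligase that works at the TNF receptor and in the turnover of the kinase of the noncanonical branch.

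Several of the members are known as NF-κB targets, so promoter matches to its binding sequence follow in part from the choice by name. The promoter windows that RefSeq gives for each transcript start (GRCh38.p14, 250 bases before to 50 bases after the start) were searched on both strands for the 10-base NF-κB consensus, the κB site. A match was found for 7 of the 8 members with a window, which is 87.5%, compared with 1937 of all 27305 genes, which is 7.09%. RELA had no match in its 2 windows. A match is a run of letters and is no test of binding. Stretches of 30 bases from each gene with a match, not every match of NFKB2 and NFKBIZ, are printed on the strand of the gene from 5′ to 3′. Whether any of them acts on its gene was not tested, and capitals mark the matched bases.
NFKB1, chr4:102501300-102501329: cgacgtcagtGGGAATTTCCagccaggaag
NFKB2, chr10:102394462-102394491: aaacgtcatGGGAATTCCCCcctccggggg
NFKB2, chr10:102395674-102395703: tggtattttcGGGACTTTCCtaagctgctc
REL, chr2:60881518-60881547: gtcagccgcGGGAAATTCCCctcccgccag
NFKBIA, chr14:35404811-35404840: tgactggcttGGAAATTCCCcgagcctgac
NFKBIZ, chr3:101827757-101827786: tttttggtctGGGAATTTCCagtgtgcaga
TNFAIP3, chr6:137867188-137867217: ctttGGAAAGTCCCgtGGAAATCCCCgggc
BIRC3, chr11:102317275-102317304: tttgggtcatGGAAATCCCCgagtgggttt
BIRC3, chr11:102317339-102317368: tattaccgctGGAGTTCCCCtaagtcctaa

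TNFAIP3 carries a pair of matches beginning 67 and 55 bases upstream of its start, both on the strand opposite to the gene. The BIRC3 matches begin 199 and 135 bases upstream, and that of NFKBIA 81 bases upstream, also on the opposite strand. REL, with a match beginning 47 bases upstream, and NFKB1, at 49 bases, have theirs close to the start. In REL the matches on the 2 strands are shifted against each other by 1 base. In the first NFKB2 stretch the same bases match on both strands, and a further match on the opposite strand is shifted by 1 base. A gene with overlapping matches was counted once.

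**Figure D1:**
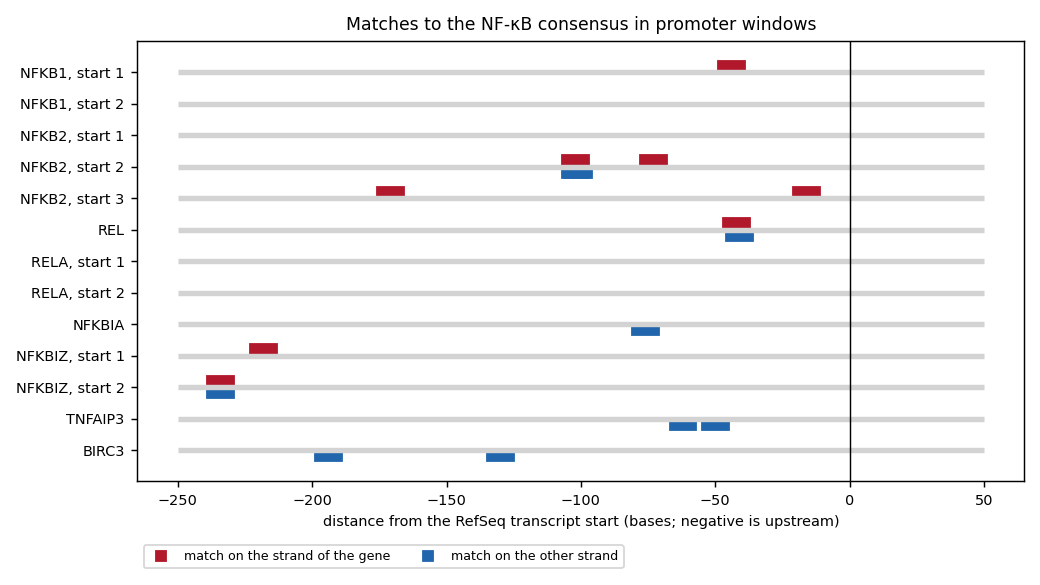
Matches to the NF-κB consensus in the 13 RefSeq promoter windows of 8 members, by distance from the transcript start in bases (horizontal axis, negative is upstream) for each window (vertical axis). Red and blue bars are matches on the strand of the gene and on the other strand; 9 windows hold a match and the windows of RELA hold none.

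The libraries held 14299807 to 45994561 counts each, and the members were counted between 445 times (REL) and 62000 times (TNFAIP3) in a library. Values are CPM, that is counts scaled to a common library size, after TMM scaling within an experiment, and the coefficient of variation of a member among 3 libraries had a median between 2.47% and 5.56% per experiment, with a highest value of 19.1% for REL in the shFOXRED1 experiment. The targeted genes followed the labels. TRIM15 had 111, 130 and 181 counts with HA-TRIM15 and 0 in all EV libraries, YY2 had 11, 12 and 11 counts with shYY2 and 43, 40 and 46 in its control, and FOXRED1 had 183, 207 and 129 counts with shFOXRED1 and 322, 259 and 254 in its control. The 8 epithelial markers were high in every library, at a summed 11809 to 17913 CPM. Of 8 fibroblast markers 1, COL1A1, passed the filter in each experiment. The sum of all 8 was 42.4 to 43.9 CPM with shYY2 and 10.5 to 11.3 in its control, 38.4 to 41.8 CPM with shFOXRED1 and 24.2 to 25.5 in its control, and 23.7 to 27.1 CPM in HFD and 30.5 to 33.5 in ND tumors. Markers of endothelial cells, lymphocytes and adipocytes summed to at most 4.49 CPM in any library. The 10 macrophage and neutrophil markers summed to 9.92 to 10.9 CPM with shYY2 and 14.5 to 15.7 in its control (1 of 2 tested lower), 8.91 to 10.2 CPM with HA-TRIM15 and 8.24 to 8.48 with EV (1 of 2 higher), 15.4 to 15.7 CPM in HFD and 16.0 to 17.3 in ND tumors (1 of 3 higher and 1 lower), and 21.0 to 24.0 CPM with shFOXRED1 and 24.5 to 26.5 in its control (0 of 2 called). All of these markers are human genes, and the handling of mouse reads is not given. The sums therefore cannot show how many mouse host cells the tumors held. The part of any of these markers in the results was not tested.

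In the xenografts 8 of the 10 genes were higher in HFD than in ND tumors and none was lower at the threshold of 0.05 on p-values from the quasi-likelihood test of edgeR, adjusted over all genes by the method of Benjamini and Hochberg, whereas 25.6% of all genes tested were called higher and 23.9% lower. Their groups did not overlap for 8 of 10, against 56.2% of all genes. The median log2 fold change of the members was 0.30 and that of all genes -0.01. In tumors, fewer cells of a type and less RNA per cell cannot be told apart. With HA-TRIM15 8 members were again higher than with EV and none was lower, where 12.5% of all genes were higher and 9.53% lower, and the groups of all 10 did not overlap, against 37.7% of genes. Their median was 0.29 and that of all genes -0.01. With shYY2 the picture differed: 7 members were lower and 2 higher than with shControl, where 38.1% of all genes were lower, 36.8% higher and 75% called in either direction, and the groups of 9 did not overlap, against 76.3% of genes. The median was -0.42 and that of all genes -0.01. With shFOXRED1 5 members were higher and 1 lower, where 16.8% of genes were higher, 19.7% lower and 36.6% called in either direction, and the groups of 6 did not overlap, against 46.7% of genes. The median was 0.09 and that of all genes 0.01. In this experiment shFOXRED1 replicate 3 stood apart, with a chi-square per gene of 7.94 and 6.90 against the other two, which differed from each other by 2.16. Without it the calls were 5 members higher and 1 lower and, over all genes, 3215 higher and 3638 lower in place of 2650 and 3102. With total counts in place of TMM the median of all genes in the xenografts moved to -0.12, their calls from 4354 higher and 4061 lower to 2800 and 6415, and those of the members to 6 higher and 1 lower. The same change moved the calls over all genes from 1973 higher and 1501 lower to 1511 and 2214 with HA-TRIM15, and from 2650 and 3102 to 3325 and 2476 with shFOXRED1, where the members' counts of calls stayed as given.

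**Figure D2:**
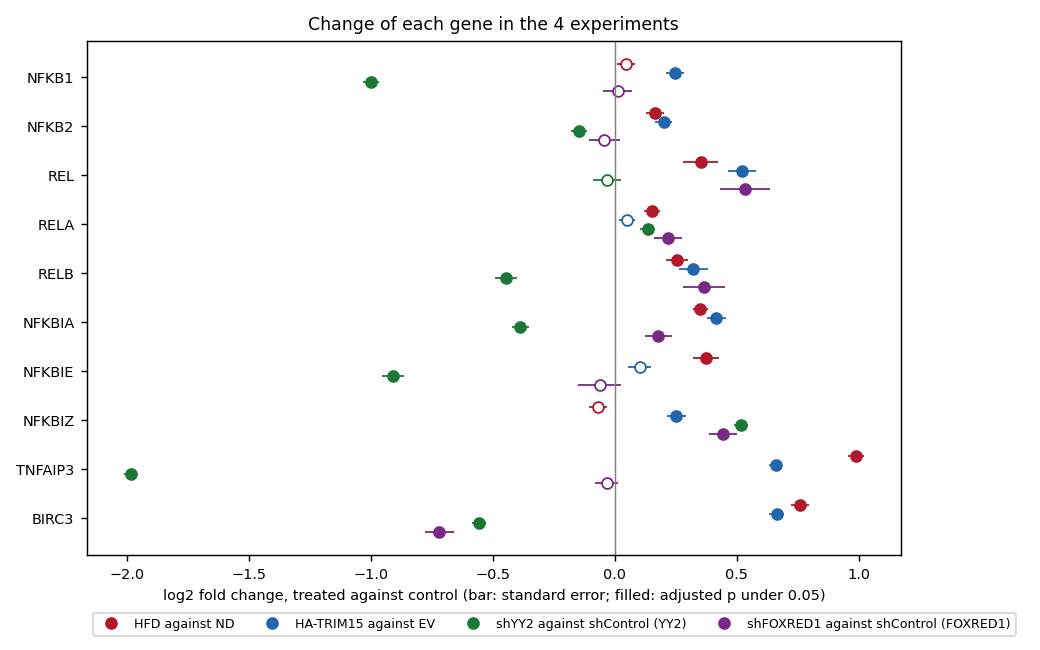
Log2 fold change of each member, treated against its own control (horizontal axis), for the 10 genes (vertical axis) in the 4 experiments (colors). Bars are standard errors and filled points have an adjusted p under 0.05; TNFAIP3 spans from -1.99 with shYY2 to 0.99 in HFD tumors.

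NFKB1 (ENSG00000109320, chr4:102501329-102617302) encodes the precursor of the subunit found in the classical dimer with RelA. In the YY2 experiment it was measured at 55.8, 53.5 and 54.4 CPM in the 3 shYY2 libraries and 109, 110 and 109 CPM in the 3 shControl libraries. The groups were far apart. NFKB1 fell by 1.00 on the log2 scale (SE 0.03, adjusted p = 3.64e-13). In the TRIM15 experiment it was at 114, 118 and 111 CPM with HA-TRIM15 and at 98.5, 96.6 and 94.7 CPM with EV, so that every HA-TRIM15 library was above every EV library, and it rose by 0.25 (SE 0.04, adjusted p = 3.19e-04). In the xenografts the 3 HFD values, 86.8 to 89.6 CPM, overlapped the 3 ND values, all at or below 87.0 CPM, and the log2 difference of 0.05 (adjusted p = 0.311) became -0.06 with total counts in place of TMM. With shFOXRED1 the difference was 0.01 (SE 0.06, adjusted p = 0.901), and the groups overlapped.

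NFKB2 (ENSG00000077150, chr10:102394110-102402529) encodes the precursor of the noncanonical branch. It was at 416, 403 and 397 CPM in HFD tumors and at 353, 376 and 354 CPM in ND tumors, without overlap. The rise of 0.16 (SE 0.04, adjusted p = 0.00128) was 0.05 (adjusted p = 0.218) with total counts in place of TMM. It rose by 0.20 with HA-TRIM15 (SE 0.03, adjusted p = 9.90e-04), from 234 to 238 CPM in EV to 264 to 284 CPM. With shYY2 it fell by 0.15 on the log2 scale (SE 0.03, adjusted p = 8.26e-04), from 296 to 324 CPM to 278 to 281 CPM. The groups did not overlap in these experiments, whereas with shFOXRED1 the groups overlapped (log2 difference -0.04, adjusted p = 0.639).

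REL (ENSG00000162924, chr2:60881521-60931610) encodes c-Rel, a transactivating subunit best known from lymphocytes, and was the member with the fewest counts. HA-TRIM15 libraries held REL at 31.1, 33.5 and 32.5 CPM and with EV at 22.0, 22.1 and 23.4 CPM, a rise of 0.52 (SE 0.06, adjusted p = 1.54e-05). In HFD tumors it was at 23.9, 29.6 and 25.9 CPM and in ND tumors at 21.1, 19.5 and 21.6 CPM, a rise of 0.35 (SE 0.07, adjusted p = 7.20e-04). Neither pair of groups overlapped. With shFOXRED1 it was at 60.6, 56.9 and 80.4 CPM against 44.1, 43.6 and 48.8 CPM in shControl, where the third shFOXRED1 library stood well above the other two. The rise was 0.53 (SE 0.10, adjusted p = 5.74e-04) and 0.37 without that library, still past the threshold. With shYY2 REL lay at 36.5, 32.2 and 36.7 CPM against 34.6, 36.8 and 36.4 CPM and did not pass the test (log2 difference -0.03, SE 0.06, adjusted p = 0.624). The annotation places a small nuclear RNA pseudogene and a noncoding gene on the same strand within REL, and their reads may be shared.

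RELA (ENSG00000173039, chr11:65653596-65663094) encodes the main transactivating subunit, whose activity is governed mostly at the protein level. The rise in HFD tumors was 0.15 (SE 0.03, adjusted p = 0.00122), from 257 to 261 CPM to 282 to 290 CPM, and was 0.04 (adjusted p = 0.325) with total counts in place of TMM. With HA-TRIM15 the groups were at 188 to 196 and 185 to 186 CPM, apart from each other but with a difference of only 0.05 (adjusted p = 0.302). With shYY2 RELA rose, unlike most members, by 0.13 (SE 0.03, adjusted p = 6.94e-04), from 219 to 230 CPM to 244 to 248 CPM. With shFOXRED1 it rose by 0.22 (SE 0.06, adjusted p = 0.00748), from 193 to 207 CPM to 214 to 246 CPM. A noncoding gene overlaps RELA on the other strand, and whether reads were assigned by strand is not settled.

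RELB (ENSG00000104856, chr19:45001430-45038198) encodes the transactivating partner of NFKB2 in the noncanonical branch. It was at 72.6, 69.2 and 71.3 CPM in HFD and at 58.5, 62.9 and 56.5 CPM in ND tumors, a rise of 0.25 (SE 0.04, adjusted p = 1.69e-04). With HA-TRIM15 it rose by 0.32 (SE 0.06, adjusted p = 0.00155), from 40.0 to 42.2 CPM to 48.2 to 56.9 CPM, and with shFOXRED1 by 0.37 (SE 0.09, adjusted p = 0.00278), from 45.5 to 51.7 CPM to 54.5 to 70.0 CPM. RELB was thus higher than its control without overlap in 3 experiments. With shYY2 it was lower in every library, at 49.9, 50.6 and 47.1 CPM against 66.0, 70.5 and 64.6 CPM, and fell by 0.45 on the log2 scale (SE 0.05, adjusted p = 2.06e-07).

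**Figure D3:**
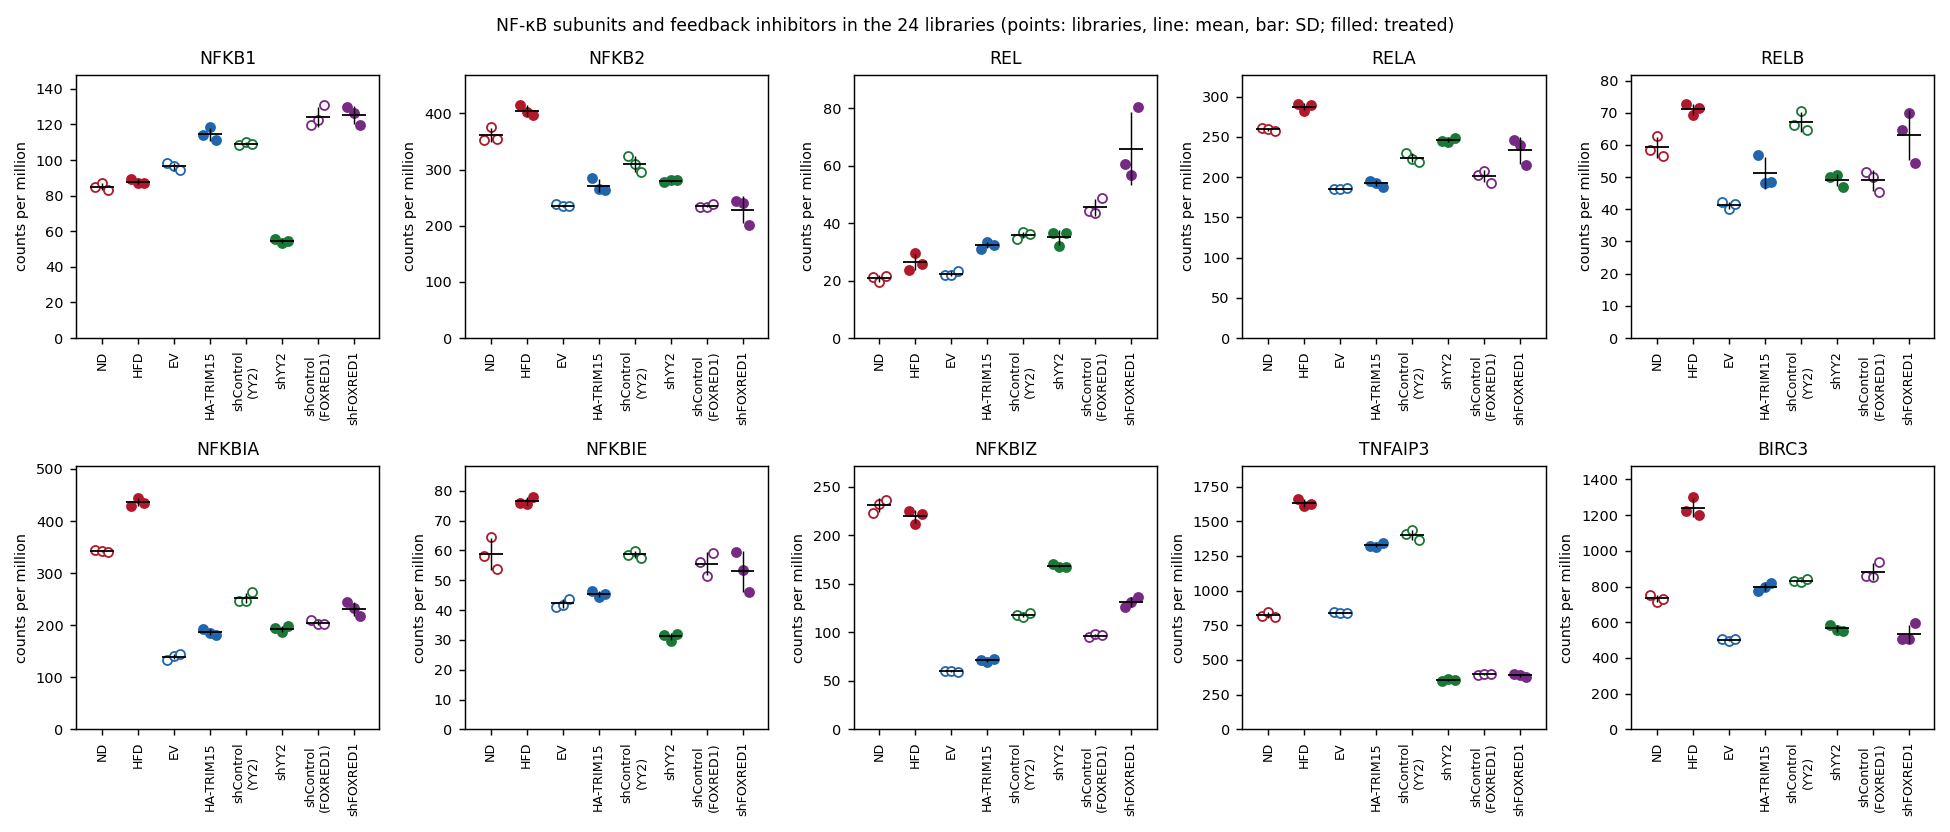
CPM of each member (vertical axes, each starting at 0) in the 24 libraries by group (horizontal axes). Points are libraries, open for control and filled for treated, with the mean as a line and the SD as a bar; TNFAIP3 lies at 346 to 360 CPM with shYY2 and at 1366 to 1436 CPM in its control.

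NFKBIA (ENSG00000100906, chr14:35401511-35404749) encodes IκBα, the prompt feedback inhibitor of the classical dimers. It was at 429, 444 and 435 CPM in HFD tumors and at 344, 342 and 340 CPM in ND tumors. The spread within each group was a few percent and the groups were well apart, with a rise of 0.35 (SE 0.03, adjusted p = 1.86e-07). With HA-TRIM15 it was at 193, 185 and 182 CPM and with EV at 134, 141 and 144 CPM, a rise of 0.42 (SE 0.04, adjusted p = 2.78e-06). With shYY2 it was at 194, 186 and 198 CPM and with shControl at 246, 247 and 263 CPM, a fall of 0.39 on the log2 scale that passed the test (log2 fold change -0.39, SE 0.03, adjusted p = 4.24e-08). NFKBIA thus had its groups apart in each of these experiments, higher with HFD and HA-TRIM15 and lower with shYY2. With shFOXRED1 it was at 244, 233 and 217 CPM against 210, 202 and 202 CPM, a rise of 0.18 (SE 0.06, adjusted p = 0.0177). This call was lost when any one of 4 libraries was left out, shFOXRED1 replicate 1 or 2 or shControl replicate 2 or 3, with an adjusted p of up to 0.0988.

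NFKBIE (ENSG00000146232, chr6:44258166-44265788) encodes IκBε, a slower inhibitor of dimers that contain RelA or c-Rel. With shYY2 it was at 31.8, 29.8 and 31.9 CPM and with shControl at 58.6, 59.8 and 57.5 CPM. The levels were separate by a wide gap, and NFKBIE fell by 0.91 on the log2 scale (SE 0.05, adjusted p = 3.39e-11). In the xenografts it was at 76.0, 75.7 and 77.9 CPM with HFD and at 58.2, 64.4 and 53.6 CPM with ND, a rise of 0.37 (SE 0.05, adjusted p = 2.24e-05). HA-TRIM15 libraries were at 44.3 to 46.3 CPM and EV libraries at 41.0 to 43.8 CPM, close but without overlap, and the difference of 0.10 (SE 0.05, adjusted p = 0.133) did not pass. With shFOXRED1 the groups overlapped (log2 difference -0.06, SE 0.09, adjusted p = 0.608).

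NFKBIZ (ENSG00000144802, chr3:101827991-101861022) encodes IκBζ, a nuclear member of the IκB family that is itself induced by NF-κB signals. With shYY2 it was at 171, 168 and 168 CPM and with shControl at 118, 116 and 120 CPM, a rise of 0.52 (SE 0.03, adjusted p = 1.61e-10) in the experiment in which 7 members fell. With shFOXRED1 it was at 127, 131 and 136 CPM against 94.8, 98.3 and 97.0 CPM, a rise of 0.44 (SE 0.06, adjusted p = 1.09e-05). Both knockdowns had every treated library above every control library. HA-TRIM15 libraries lay between 69.1 and 72.1 CPM and EV libraries at 60.7, 59.9 and 58.7 CPM, a rise of 0.25 (SE 0.04, adjusted p = 4.45e-04). In the xenografts the groups overlapped, at 212 to 225 CPM with HFD and 223 to 237 CPM with ND. The log2 difference of -0.07 (adjusted p = 0.135) was -0.18 (adjusted p = 6.54e-04) with total counts in place of TMM.

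TNFAIP3 (ENSG00000118503, chr6:137867188-137883312) had the largest change of the 10 members in the xenografts and with shYY2, but not with HA-TRIM15 or shFOXRED1. Its product removes activating ubiquitin chains from signaling proteins below the TNF and Toll-like receptors. In HFD tumors it was at 1661, 1607 and 1627 CPM and in ND tumors at 814, 847 and 809 CPM, a 1.98-fold higher level (log2 fold change 0.99, SE 0.03, adjusted p = 1.28e-12). With HA-TRIM15 it was at 1320, 1318 and 1341 CPM and with EV at 843, 837 and 839 CPM, a 1.58-fold higher level (log2 fold change 0.66, SE 0.03, adjusted p = 1.71e-10). The libraries of a group lay close together and the groups were far apart. With shYY2 it was at 346, 360 and 357 CPM and with shControl at 1409, 1436 and 1366 CPM, so that the knockdown libraries held 0.253 of the control level (log2 fold change -1.99, SE 0.03, adjusted p = 4.35e-17). With shFOXRED1 the levels were 399, 391 and 377 CPM against 394, 399 and 401 CPM, overlapping, with a log2 difference of -0.03 (SE 0.05, adjusted p = 0.614) that was 0.02 with total counts in place of TMM. In that experiment the control cells were themselves at a level near that of the shYY2 cells. An antisense gene overlaps TNFAIP3 on the other strand.

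BIRC3 (ENSG00000023445, chr11:102317450-102339403) was the only member that rose in 2 experiments and fell in both knockdowns. It was at 1225, 1301 and 1199 CPM in HFD tumors and at 754, 715 and 733 CPM in ND tumors, a 1.69-fold higher level (log2 fold change 0.76, SE 0.04, adjusted p = 9.94e-11). With HA-TRIM15 it was at 773, 797 and 817 CPM and with EV at 505, 494 and 507 CPM, a 1.58-fold higher level (log2 fold change 0.66, SE 0.03, adjusted p = 1.13e-09). Treated and control libraries were apart in both. With shYY2 it was at 586, 558 and 553 CPM and with shControl at 829, 825 and 845 CPM, and it fell by 0.56 on the log2 scale (SE 0.03, adjusted p = 4.24e-11). With shFOXRED1 it was at 505, 508 and 594 CPM and with shControl at 858, 853 and 936 CPM, and it fell by 0.72 (SE 0.06, adjusted p = 7.11e-08). It was the one member that fell with shFOXRED1, while its neighbor and paralog BIRC2, to which its reads may partly belong, changed by -0.21 on the log2 scale (adjusted p = 0.0132, a call lost without any one of 3 libraries). BIRC2 rose together with BIRC3 in HFD tumors, by 0.61 (adjusted p = 2.21e-09), and with HA-TRIM15, by 0.25 (adjusted p = 1.04e-04), and with shYY2 its log2 difference was 0.02 (adjusted p = 0.519).

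Whether a member changed unequally in 2 experiments was tested as a difference of effects in a single edgeR fit of all 24 libraries. Between the HFD and HA-TRIM15 experiments 4 of the 10 members differed, where 28.4% of genes did. NFKBIE was among them, with a rise that was larger with HFD by 0.28 (SE 0.09, adjusted p = 0.0207). TNFAIP3 rose more with HFD, by 0.33 on the log2 scale (SE 0.04, adjusted p = 2.35e-07), NFKBIZ and NFKB1 differed by -0.31 (adjusted p = 2.90e-05) and -0.19 (adjusted p = 0.00775, but 0.130 without the filter on low counts), being higher with HA-TRIM15, and for BIRC3 (0.10, SE 0.06, adjusted p = 0.271) and NFKBIA (-0.06, SE 0.06, adjusted p = 0.490) no difference was detected. The changes with HFD and HA-TRIM15 differed from the changes with shYY2 for 9 of 10 members in each case, where 61.9% and 57.4% of genes did. The distance between the effects of HFD and shYY2 was 2.94 for TNFAIP3 (SE 0.04, adjusted p = 7.67e-30), 1.29 for BIRC3 (SE 0.07), 1.26 for NFKBIE (SE 0.09), 1.02 for NFKB1 (SE 0.06) and 0.71 for NFKBIA (SE 0.06). NFKBIZ had the opposite sign, -0.62 (SE 0.05, adjusted p = 4.14e-12).

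The knockdowns of YY2 and of FOXRED1 differed from each other for 7 of 10 members, where 55.5% of genes did. Of these 7, 6 were lower with shYY2, among them TNFAIP3 by -1.91 (SE 0.04, adjusted p = 1.29e-24), NFKB1 by -0.97 (SE 0.06, adjusted p = 5.17e-15) and NFKBIA by -0.52 (SE 0.06, adjusted p = 5.75e-09). BIRC3 went the other way, with a fall that was larger by 0.20 with shFOXRED1 (SE 0.07, adjusted p = 0.00876). For NFKBIZ, which rose in both, the difference was 0.12 (SE 0.05, adjusted p = 0.0595). HFD and HA-TRIM15 differed from shFOXRED1 for 6 and 7 members, where 49.5% and 36.5% of genes did, and the distance was widest for BIRC3, at 1.49 (SE 0.07, adjusted p = 6.52e-18) and 1.39 (SE 0.07, adjusted p = 1.43e-16).

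Compared per kilobase of exon (GENCODE 29) after a common scaling of all 24 libraries, the members kept much of their order, although tables that were counted in separate experiments are set side by side here. TNFAIP3 was the highest of the 10 in 5 of the 8 groups, with 316 ± 4.92 CPM per kb in HFD, 276 ± 6.74 in shControl of the YY2 experiment, 269 ± 2.47 with HA-TRIM15, 171 ± 0.482 with EV and 159 ± 3.47 in ND (SD, n = 3). It lay lower, at 78.3 ± 0.700, 76.0 ± 2.22 and 71.2 ± 1.16 CPM per kb, in shControl of the FOXRED1 experiment, with shFOXRED1 and with shYY2. The shControl libraries of the YY2 experiment (268 to 282 CPM per kb) and of the FOXRED1 experiment (77.5 to 78.9) were thus far apart, which cannot be told apart from a difference between experiments. NFKBIA was the highest with shYY2 and shFOXRED1, and BIRC3 in shControl of the FOXRED1 experiment. With shYY2 TNFAIP3, BIRC3 (74.4 to 79.5) and NFKBIA (79.5 to 84.3) were neighbors in this order, and the libraries of BIRC3 and NFKBIA overlapped. NFKBIA ranged from 57.9 to 183 CPM per kb over the libraries. BIRC3 ranged from 66.2 to 169 and NFKB2, at rank 4 in every group, from 44.2 to 90.6 CPM per kb. RELA was at rank 5 in every group and had the narrowest range of the 10 as a ratio of highest to lowest library, 1.49-fold, from 34.9 to 51.9 CPM per kb. REL was at rank 10 in every group, at 1.44 to 6.01 CPM per kb, on a long exon model of 13170 bases.

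As a share of the summed CPM per kb of the 5 subunits, NFKB2 led in every group. It made up 49.5% ± 0.540 in HFD and 49.5% ± 0.575 in ND tumors (SD, n = 3), and RELA 28.8% ± 0.416 and 29.2% ± 0.722. NFKB1 made up 6.46% ± 0.141 with shYY2 and 11.5% ± 0.343 in its control, whereas the share of RELA was 33.3% ± 0.294 and 26.9% ± 0.326. In the FOXRED1 experiment the share of NFKB2 was 36.5% ± 1.08 with shFOXRED1 and 40.8% ± 0.711 in its control, and that of REL 3.64% ± 1.00 and 2.68% ± 0.179. The shares sum to a whole, so a fall in one raises the others.

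**Figure D4:**
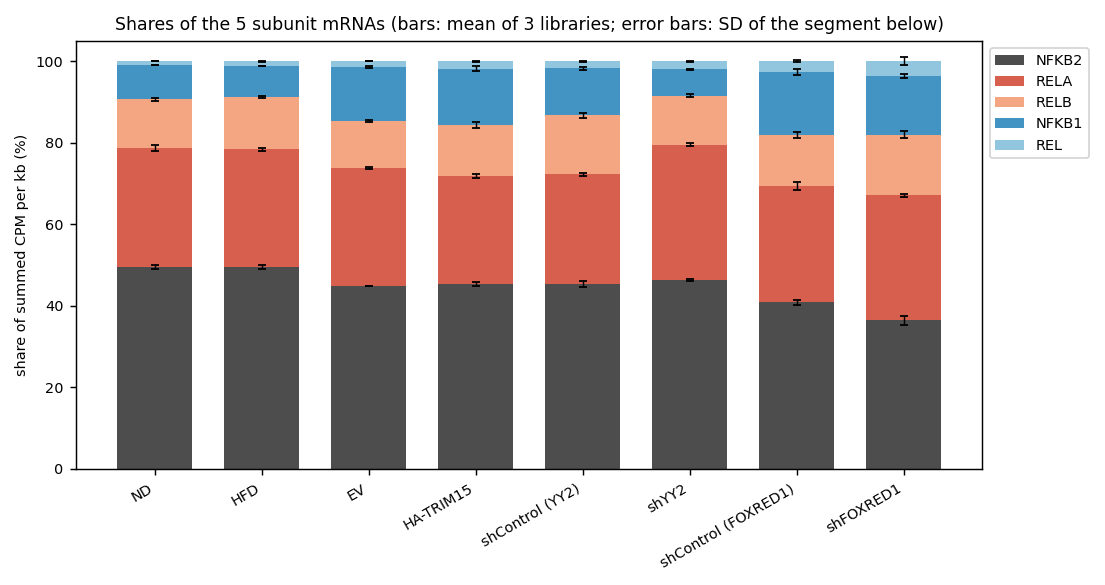
Share of each subunit in the summed CPM per kb of the 5 Rel genes (vertical axis, percent) in the 8 groups (horizontal axis); bars are means of 3 libraries and error bars the SD. NFKB2 and RELA make up most of every bar, and the NFKB1 segment is 6.46% with shYY2 and 11.5% in its control.

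The other genes of the pathway were taken from 5 lists of 99 genes, of which 84 to 91 passed the filter per experiment. These lists, too, were chosen with earlier results of these data known. Their counts of calls stand beside the shares of all genes tested. These were 25.6% higher and 23.9% lower with HFD, and 12.5% and 9.53% with HA-TRIM15. With shYY2 they were 36.8% and 38.1%, and with shFOXRED1 16.8% and 19.7%. Of the 3 relatives of the members, BCL3, a nuclear IκB protein, rose by 0.45 in HFD tumors (adjusted p = 2.55e-07), and NFKBIB, which encodes IκBβ, rose by 0.33 with HA-TRIM15 (adjusted p = 0.00161). NFKBID, another nuclear relative, fell by 0.71 on the log2 scale with shYY2 (adjusted p = 2.88e-05), where BCL3 rose by 0.25 (adjusted p = 5.57e-04). NFKBID rose by 0.67 with shFOXRED1 (adjusted p = 0.0141), a call lost without shFOXRED1 replicate 1 or shControl replicate 1. In all, 2 of 3 were higher with HFD, HA-TRIM15 and shFOXRED1 each, and with shYY2 1 was higher and 2 lower.

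Receptors and adaptors carry signals into the pathway. Of 20 tested, 9 were higher and 1 lower in HFD tumors, with a median log2 fold change of 0.07, and 1 was higher and 2 lower with HA-TRIM15, with a median of -0.02. Among them TRAF3, an adaptor of the TNF receptor family, rose by 0.69 in HFD tumors (adjusted p = 4.01e-10). IRAK2, a kinase of the interleukin-1 receptor, rose by 0.28 with HA-TRIM15 (adjusted p = 1.65e-04). LTBR, the lymphotoxin receptor, fell by 0.13 with HFD and by 0.15 with HA-TRIM15 (adjusted p = 0.0135 and 0.0190), calls that 1 and 4 of the 6 single libraries, respectively, could remove. With shYY2 7 were higher and 10 lower (median -0.09), beside 36.8% and 38.1% of all genes. IRAK1 went down there to 223 from 565 CPM (log2 fold change -1.34, adjusted p = 3.90e-15) and TRADD up by 0.64 (adjusted p = 1.04e-08). With shFOXRED1 8 were higher and 2 lower (median 0.12). TLR3, the receptor for double-stranded RNA, rose there from 10.2 to 22.2 CPM (log2 fold change 1.12, adjusted p = 8.37e-07), and TRAF3 fell by 0.32 (adjusted p = 1.74e-04).

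Of the 17 genes of the IKK complex and the kinases above it, 5 were higher and 5 lower in HFD tumors (median 0.01). All genes were at 25.6% and 23.9% there. With HA-TRIM15 5 were higher and 3 lower (0.02), beside 12.5% and 9.53% of all genes. With shYY2 9 were higher and 5 lower (0.12), beside 36.8% and 38.1%. With shFOXRED1 4 were higher and 6 lower (-0.07), beside 16.8% and 19.7%. MALT1, a paracaspase that links antigen and growth factor receptors to IKK, rose by 0.64 in HFD tumors (adjusted p = 1.83e-08) and fell by 0.53 with shFOXRED1 (adjusted p = 5.67e-04). MAP3K8, a kinase held by the NFKB1 precursor, rose by 0.54 with HA-TRIM15 (adjusted p = 7.32e-05) and by 0.77 with shYY2 (adjusted p = 2.05e-09). IKBKE, an IKK-related kinase, fell by 1.01 with shYY2 (adjusted p = 1.24e-10). CARD10, a scaffold of the same complex as MALT1, rose by 0.44 with shFOXRED1 (adjusted p = 2.87e-04). TAB1, a subunit of the TAK1 kinase complex, fell by 0.40 with HFD (adjusted p = 4.85e-06) and by 0.31 with HA-TRIM15 (adjusted p = 9.19e-04).

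The ubiquitin writers and other negative regulators included 8 higher and 1 lower of 17 in HFD tumors (median 0.09) and 8 higher and none lower of 16 with HA-TRIM15 (median 0.13). With shYY2 3 were higher and 9 lower (median -0.16), and with shFOXRED1 2 were higher and 2 lower (median 0.11). PDLIM2, a nuclear ubiquitin ligase for RelA, rose by 0.93 with HFD (adjusted p = 3.83e-08), and SPATA2, a partner of the deubiquitinase CYLD, fell by 0.33 (adjusted p = 2.86e-05). CYLD itself rose by 0.58 with HA-TRIM15, from 64.6 to 96.3 CPM (adjusted p = 1.64e-07), and by 0.29 with shYY2 (adjusted p = 2.58e-07). ZC3H12A, an RNase that degrades inflammatory mRNAs, fell by 0.92 with shYY2 (adjusted p = 5.95e-12) and rose by 0.50 with shFOXRED1 (adjusted p = 2.50e-05).

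Classical target genes are switched on by NF-κB in many cell types. Of 34 tested in the xenografts 27 were higher and 3 lower with HFD (median 0.64), and of 31 with HA-TRIM15 23 were higher and 2 lower (median 0.54). Of 31 with shYY2 20 were lower and 7 higher (median -0.92), and of 28 with shFOXRED1 8 were higher and 7 lower (median -0.07). CXCL8, the neutrophil chemokine interleukin-8, went from 86.9 to 154 CPM with HFD (log2 fold change 0.82, adjusted p = 2.83e-11), from 25.5 to 75.5 CPM with HA-TRIM15 (1.56, adjusted p = 5.41e-12) and from 103 to 8.52 CPM with shYY2 (-3.59, adjusted p = 1.29e-16). With shFOXRED1 its log2 difference was -0.20 (adjusted p = 0.0797), which passed the threshold with the replicate block (adjusted p = 0.0250), in the fit of all 24 libraries (0.00383) and without shFOXRED1 replicate 3 (0.00929). IL1A, an alarm cytokine of epithelial cells, rose by 1.13 with HFD (adjusted p = 7.23e-12) and by 0.83 with HA-TRIM15 (adjusted p = 1.11e-08), and fell by 1.06 on the log2 scale with shYY2 (adjusted p = 6.81e-11) and by 1.75 with shFOXRED1 (adjusted p = 3.41e-10).

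IL1B rose by 1.47 with HFD (adjusted p = 3.90e-11), differed by -0.19 with HA-TRIM15 (adjusted p = 0.154), and fell by 0.69 with shYY2 (adjusted p = 6.96e-05) and by 1.71 with shFOXRED1 (adjusted p = 2.16e-09). IL6 was at low levels, and rose by 0.49 with HFD, from 4.30 to 6.08 CPM (adjusted p = 0.00142). With HA-TRIM15 it rose by 1.74, from 1.06 to 3.51 CPM (adjusted p = 1.27e-05). It fell by 2.65 on the log2 scale with shYY2 (adjusted p = 8.99e-11), and had 0 to 3 counts per library in the FOXRED1 experiment, where it was not tested. TNF was listed at 0 in all 24 libraries. The aligner and the counter are not given, so this does not show that TNF was not transcribed. CXCL5, a chemokine, rose by 1.59 with HFD, from 0.57 to 1.74 CPM (adjusted p = 2.35e-05). CCL20, a chemokine for T helper cells, rose by 1.76 with HA-TRIM15, from 1.47 to 4.93 CPM (adjusted p = 6.77e-06). In HFD tumors it was lower by a log2 fold change of -0.37 (adjusted p = 0.0480) with overlapping groups, a call lost without any one of 4 libraries. GADD45B, a stress response gene, rose by 1.51 with shYY2 (adjusted p = 1.10e-14), and CSF1, the macrophage growth factor, by 0.83 with shFOXRED1 (adjusted p = 1.65e-07). SQSTM1, an autophagy receptor, fell by 0.13 with HA-TRIM15 (adjusted p = 0.00793), a call lost without HA-TRIM15 replicate 2 or EV replicate 1.

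**Figure D5:**
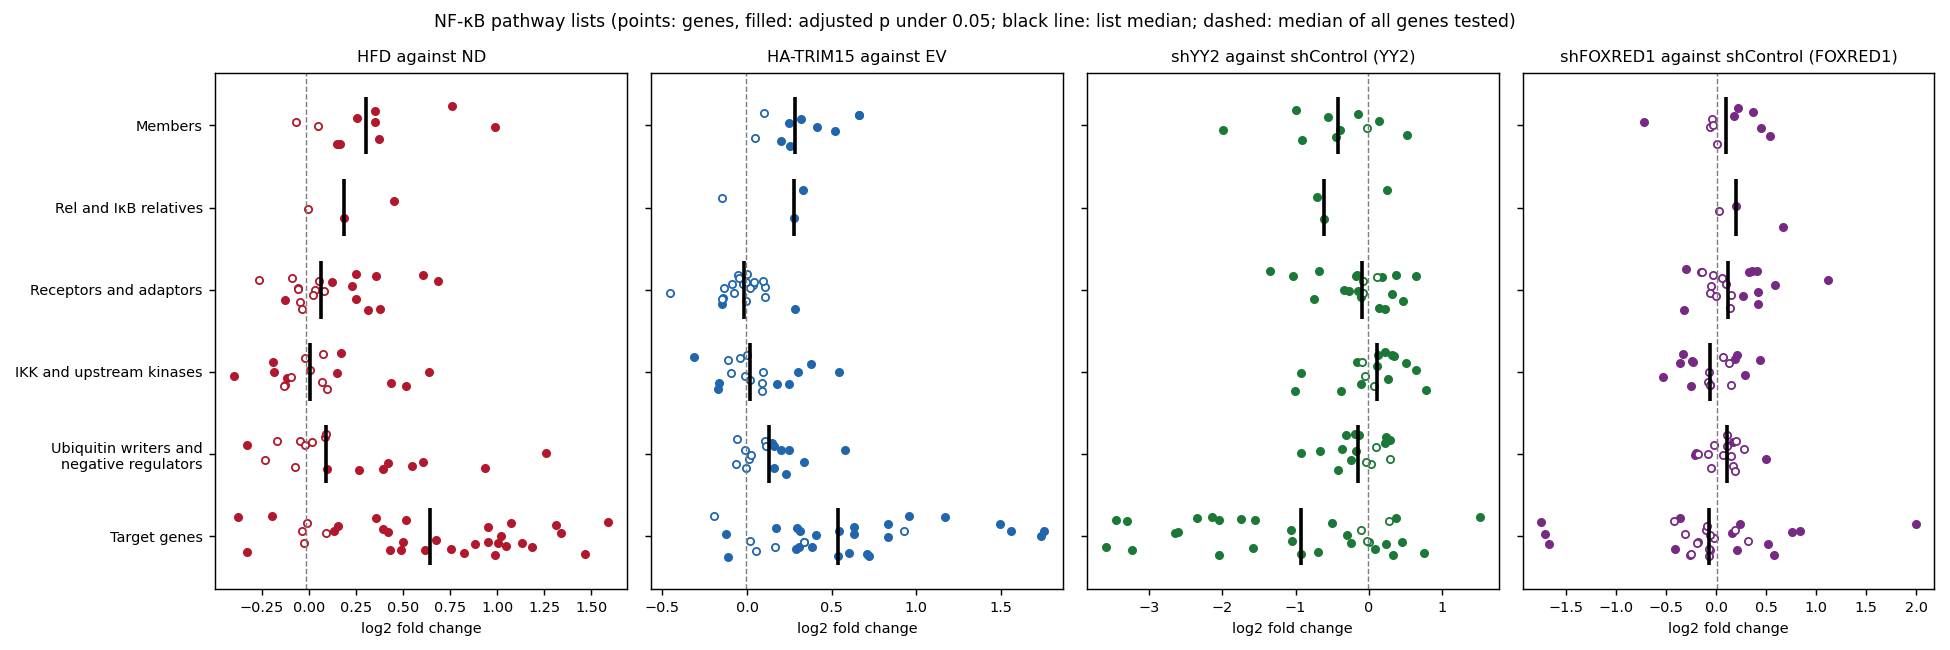
Log2 fold change (horizontal axes) of the members and of the genes of the 5 pathway lists (vertical axis) in the 4 experiments (panels, each with its own scale). Points are genes, filled at an adjusted p under 0.05, black lines are list medians and dashed lines the median of all genes tested; the target genes have medians of 0.64, 0.54, -0.92 and -0.07 from left to right.

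The κB consensus was found in the promoter windows of 3 of 3 relatives, 18 of 35 target genes (51.4%), 3 of 16 negative regulators (18.8%), 2 of 15 IKK genes (13.3%) and 1 of 18 receptors and adaptors (5.56%), beside 7.09% of all genes. The target genes were listed as known NF-κB targets, so their share follows in part from that choice.

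Finally, the pattern over the 24 libraries was summarized as the mean log2 CPM of the 10 members, centered within each experiment. NFKBIA (r = 0.956) and TNFAIP3 (0.944) lay nearest to this mean, which includes them, followed by NFKBIE (0.846), RELB (0.838), NFKB1 (0.806), NFKB2 (0.749), BIRC3 (0.725) and REL (0.539). The r of REL stood only at percentile 82.3 of the genes tested in all experiments. RELA (0.051) and NFKBIZ (-0.318) did not follow the mean. Of the genes outside the members, those with the highest r among 14519 genes tested in all experiments were WTAP (0.958), a subunit of the mRNA methyltransferase complex, LCN2 (0.954), an iron-binding secreted protein of the target list, CXCL3 (0.942), a chemokine, ZC3H12C (0.940), a relative of the RNase ZC3H12A, and ABCA12 (0.937), a lipid transporter. The points are 3 treated and 3 control libraries in each of 4 experiments, so these correlations mostly describe the group differences. WTAP rose by 0.35 with HFD and by 0.35 with HA-TRIM15 and fell by 0.59 with shYY2, and with shFOXRED1 its log2 difference was -0.03 (adjusted p = 0.775), which was 0.03 with total counts in place of TMM.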

How the data were processed

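Poly(A) RNA libraries were sequenced paired-end on a DNBSEQ instrument, and the authors deposited a table of whole-number read counts per Ensembl gene for each of 4 experiments. The submitters' processing notes name the builds hg38 and mm10 without their role; the aligner, the counter and the handling of mouse reads in the xenografts are not given in the sources used here. The sources differ on the library kit, so strandedness is not settled. Columns of the TRIM15 table were read by number because 3 header cells are empty, and 0 columns were left unused. Gene names were matched for 61757 of 61860 identifiers.

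Each experiment was fitted on its own in R 4.3.3 with edgeR 4.0.16 (filterByExpr with a minimum count of 10 and a minimum total of 15, TMM, quasi-likelihood test). Adjusted p-values are Benjamini-Hochberg values over every gene that passed the filter, called under 0.05, and standard errors were derived from the F statistic. With 3 libraries against 3, an exact permutation test cannot go below p = 0.1. Differences between experiments came from 1 fit of all 24 libraries. DESeq2 1.42.0, other scalings and filters, the replicate block, the fit of all libraries and leaving out each library were alternatives, and the scripts were tested on simulated data. There, changes were set in genes drawn from all that were tested. At 1.2-fold, 23.9% were recovered in the FOXRED1 experiment, the lowest share, and 46.3% in the xenografts, the highest. At 1.5-fold the lowest share was 59.7%, in the FOXRED1 experiment, and the highest 77.6%, with HA-TRIM15. Levels per kb used GENCODE 29 exons (GRCh38), and promoter windows came from RefSeq.

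Members and lists were chosen with earlier results of these data known. The text names the 10 members; per list and direction the called gene with the largest change at a mean of 1 CPM or more; TNF, IL1A, IL1B, IL6 and CXCL8; the targeted genes; and the 5 genes most like the members' mean (log2 CPM, prior count 2). Same-numbered libraries of the FOXRED1 experiment deviated together over 9725 genes at or above 10 CPM (r = 0.211, 0.125 and 0.410) but not over all tested genes (0.032, 0.012 and 0.078). In the other experiments at least 1 pair was below 0.1 by either measure. The other assays of the study were not analysed here.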

Additional observations from a re-analysis of the deposited data

How the results depend on the processing

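Under other scalings, filters and tools the counts of called members stayed within 1.5 times those reported, with the exception of the xenografts, where total counts in place of TMM gave 6 members higher and 1 lower and 25 other pathway genes lower in place of 10. The same scaling turned the difference of NFKB1 with HFD to -0.063 and, with shFOXRED1, those of NFKB2 to 0.013, TNFAIP3 to 0.024 and WTAP to 0.032, none of which passed the test. DESeq2 gave -0.0016 for NFKB1 with shFOXRED1, and the fit of all 24 libraries 0.00025 for REL with shYY2. With the replicate number as a block no member's call changed (8 higher with HFD and with HA-TRIM15, 2 higher and 7 lower with shYY2, 5 and 1 with shFOXRED1), CCL20 with HFD lost its call (-0.32, adjusted p = 0.0596) and CXCL8 with shFOXRED1 gained one (-0.19, adjusted p = 0.0250), as it did in the fit of all 24 libraries (-0.21, adjusted p = 0.00383). Leaving out 1 library at a time gave 6 to 11 other pathway genes lower with HFD (6 without HFD replicate 3) and 2 to 13 with HA-TRIM15, against 7 (13 without HA-TRIM15 replicate 1, 2 without HA-TRIM15 replicate 2 or EV replicate 1). It moved REL with shYY2 between -0.066 and 0.029 and, with shFOXRED1, NFKB1 between -0.020 and 0.048, NFKB2 between -0.088 and 0.037, NFKBIE between -0.15 and 0.024, CXCL3 between -0.15 and 0.0026 and ZC3H12C between -0.040 and 0.14. Without the filter the differences of NFKB1 between HFD and HA-TRIM15 (-0.16, adjusted p = 0.130) and of NFKBIZ between HA-TRIM15 and shFOXRED1 (-0.19, adjusted p = 0.0579) missed the threshold. Over all genes, leaving out 1 library gave 1247 to 2594 genes higher and 787 to 2506 lower with HA-TRIM15, against 1973 and 1501, the highest both without HA-TRIM15 replicate 1. The causes were not tested.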
